A study of Mus musculus with 14 samples.

Results

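Of the 55401 genes counted in each sample of bone marrow from distal tibiae, 9 imprinted genes with known roles in growth were picked by their symbols: *Plagl1*, *Cdkn1c*, *Grb10*, *Mest*, *Peg3*, *Dlk1*, *Sgce*, *H19* and *Meg3*. All 9 were found in the files, and 8 passed the filter on low counts. *Dlk1* did not pass it and was not tested. The genes were compared in all 14 samples over 4 groups of genotype and diet.

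An imprinted gene is transcribed mainly from the copy inherited from 1 parent. In most cases this depends on DNA methylation of the domain that was set in the egg or the sperm. In the mouse, paternally expressed genes tend to promote growth before and after birth, and maternally expressed genes tend to restrain it. Many of them are highest in fetal tissues and placenta and are shut down after weaning, and several stay active in stem, stromal and fat precursor cells. *Plagl1*, *Mest*, *Peg3*, *Sgce* and *Dlk1* are expressed from the paternal copy, and *Cdkn1c*, *H19*, *Meg3* and, in most tissues, *Grb10* from the maternal copy. Counts per gene do not separate the parental copies.

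The study asked how marrow fat takes part in the response of bone and marrow to caloric restriction (CR). *Pnpla2* encodes adipose triglyceride lipase, which starts the breakdown of stored fat. BMAd-*Pnpla2*-/- mice had this gene deleted in bone marrow adipocytes (BMAds) by a Cre recombinase, and BMAd-*Pnpla2*+/+ mice kept it. Per the study's text, mice of both genotypes carried the Cre and FLPo alleles described below and differed in the floxed (Cre-sensitive) *Pnpla2* alleles. The paper reports that the Cre insertion lowered adiponectin protein. All were male C57BL6/SJL mice 24 weeks of age, fed ad libitum (AL) or kept for 6 weeks on a 30% CR diet. The groups were BMAd-*Pnpla2*+/+ AL (4 samples), BMAd-*Pnpla2*+/+ CR (4), BMAd-*Pnpla2*-/- AL (3) and BMAd-*Pnpla2*-/- CR (3). Each sample was a pool of the marrow plugs of 2 mice. The Cre sits behind an internal ribosome entry site in the *Adipoq* gene and is turned on by a FLPo recombinase made from *Osterix*, and per the study's text it is weakly expressed, so deletion can be incomplete. Marrow plugs hold blood, stromal, vascular and bone cells beside adipocytes. The p-values measure the spread between these pools.

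Between 18898324 and 21665553 reads per sample were assigned to genes when strand was ignored, and levels below are counts-per-million (CPM) values of these reads after TMM scaling by edgeR. In 11 samples, 4.30% to 4.62% of the reads that were assigned by strand lay on the first strand, as a strand-specific library gives. In the 3 BMAd-*Pnpla2*-/- CR samples, 50.1% to 50.5% did, so the library type and this group cannot be told apart. The count that ignores strand was therefore used in every sample. *Pnpla2* was between 502 and 1015 CPM in BMAd-*Pnpla2*+/+ CR samples and between 177 and 267 CPM in BMAd-*Pnpla2*-/- CR samples, a log2 fold change of -1.90 (standard error 0.26, adjusted p = 0.0386). Fed AL, it was between 174 and 301 CPM against 131 to 170 CPM (log2 fold change -0.57, adjusted p = 0.9996). None of the 7 adipocyte markers (among them *Adipoq*, *Plin1* and *Lep*) and none of the 7 markers of marrow stromal cells (among them *Cxcl12* and *Lepr*) was at 0 in any group.

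The 9 genes lie at 7 places in the mouse genome (GRCm38, GENCODE M21), each in or beside an imprinted domain. *Plagl1* (chr10:13060504-13131694, plus strand, 13 merged exons) and *Grb10* (chr11:11930508-12038683, minus strand, 22 merged exons) stand alone among them. *H19* (chr7:142575529-142578143, minus strand) and *Cdkn1c* (chr7:143458339-143461050, minus strand) are in neighbouring domains at the end of chromosome 7, and *Peg3* (chr7:6703892-6730431, minus strand) is at its start. *Sgce* (chr6:4674350-4747207, minus strand) and *Mest* (chr6:30723547-30748465, plus strand) share chromosome 6, and *Dlk1* (chr12:109452823-109463336, plus strand) and *Meg3* (chr12:109541001-109571726, plus strand) share 1 domain of chromosome 12. *Mest* shares 23.1% of its exon bases with *Copg2*, and *Cdkn1c* shares 30.7% with the antisense gene *Gm44732*, both on the other strand, and reads in such stretches are dropped when strand is ignored.

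Per kilobase of merged exon, the highest mean level over the 14 samples was that of *Cdkn1c*, at 7.97 CPM per kb ± 4.30 (SD, n = 14). *Plagl1* followed at 6.70 ± 4.91, *Mest* at 4.55 ± 2.71, *Grb10* at 3.02 ± 1.42 and *Sgce* at 2.22 ± 0.581 CPM per kb. *H19*, at 0.539 ± 0.424, and *Peg3*, at 0.404 ± 0.222, were lower. *Meg3*, at 0.0374 ± 0.0149, and *Dlk1*, at 0.0185 ± 0.0112 CPM per kb, were close to the limit of detection. Going down this order, the mean of a gene minus its SD reached the mean of the next gene except from *Sgce* to *H19*, from *Peg3* to *Meg3* and from *Meg3* to *Dlk1*. With the longest transcript as the length, *Plagl1* (9.96 CPM per kb) came before *Cdkn1c* (8.55), and *Peg3* (0.619) before *H19* (0.580). The order also depended on the group: per kilobase of merged exon, *Mest* (3.01 CPM per kb) was above *Plagl1* (2.61) in BMAd-*Pnpla2*+/+ AL samples, and *Peg3* (0.604) above *H19* (0.397) in BMAd-*Pnpla2*+/+ CR samples. The level of *Cdkn1c* is a lower estimate, since 54.7% of its reads in the 11 strand-specific libraries were kept when strand was ignored. For *Mest* the share was 68.8%, and 14.3% of its reads by strand lay on the strand of *Copg2*.

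Stretches before a transcription start of the 4 genes below are shown because these genes, with *Cdkn1c*, were called in the comparison of diets that follows. The sequences come from RefSeq (GRCm38.p6), which gave a window for 6 of the 9 genes and none for *Cdkn1c*, *H19* and *Sgce*. Each covers up to 250 bases before a start with the most annotated transcripts, ties included, without bases of any annotated exon, 5′ to 3′ on the gene's strand. Capitals mark GGGCGG or its reverse complement CCGCCC, known as the GC box, and GGGGCCCC, the core of the site that PLAGL1 binds in vitro.
Plagl1, chr10:13090582-13090690, plus strand: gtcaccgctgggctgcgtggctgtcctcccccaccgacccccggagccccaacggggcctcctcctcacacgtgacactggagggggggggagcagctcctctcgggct
Grb10, chr11:12037421-12037670, minus strand: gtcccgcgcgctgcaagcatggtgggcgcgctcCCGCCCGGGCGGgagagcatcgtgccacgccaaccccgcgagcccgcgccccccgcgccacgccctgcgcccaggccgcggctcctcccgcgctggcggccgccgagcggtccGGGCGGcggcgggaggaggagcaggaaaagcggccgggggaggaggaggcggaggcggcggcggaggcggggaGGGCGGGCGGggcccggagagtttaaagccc
Mest, chr6:30737800-30738049, plus strand: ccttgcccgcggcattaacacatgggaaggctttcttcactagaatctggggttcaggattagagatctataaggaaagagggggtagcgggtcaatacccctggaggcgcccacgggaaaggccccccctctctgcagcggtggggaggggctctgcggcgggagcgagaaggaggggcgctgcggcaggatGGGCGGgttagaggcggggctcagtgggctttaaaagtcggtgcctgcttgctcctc
Peg3, chr7:6730432-6730669, minus strand: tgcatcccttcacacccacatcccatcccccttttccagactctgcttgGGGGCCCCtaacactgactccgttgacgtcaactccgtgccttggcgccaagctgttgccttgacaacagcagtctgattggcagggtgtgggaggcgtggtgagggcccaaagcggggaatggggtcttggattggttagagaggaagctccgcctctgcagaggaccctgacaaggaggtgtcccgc
The *Grb10* stretch held 40 CG pairs and 5 matches of the GC box, a pair of which overlap. *Grb10* has another start with as many annotated transcripts. The stretch before that start, chr11:12027972-12028221, is not shown and held 8 CG pairs and no GC box, so the values for *Grb10* depend on the start taken. Of 32851 such windows in the table, 1.31% had as many CG pairs or more, and 32.7% held a GC box. The *Mest* stretch held 1 GC box and 14 CG pairs, a number that 29.4% of windows reached. The *Peg3* stretch held 8 CG pairs and 1 match of GGGGCCCC, which 0.889% of windows held. The full window of *Plagl1* held 19 CG pairs, reached by 19.7% of windows, and its printed 109 bases held none of the motifs. None of the 4 held TATAAA, found in 12.4% of windows on either strand, and the median window had 6 CG pairs.

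In BMAd-*Pnpla2*+/+ mice, 5 of the 8 genes tested were higher with CR than AL: *Plagl1*, *Cdkn1c*, *Grb10*, *Mest* and *Peg3*. No gene of the 8 was lower. Each of the 5 rose by more than 2-fold, and in each every CR sample was above every AL sample. How many of all genes tested separate in this way was not counted, here or in the comparisons below. A lack of overlap between groups therefore cannot be read as particular to these genes. *Sgce*, *H19* and *Meg3* did not pass the test. Among all 17671 genes tested, 15.1% were called higher and 10.9% lower at an adjusted p under 0.05, and 7.33% were higher by the criteria that also ask for a log2 fold change over 1, which the same 5 genes met. The median log2 fold change of the 8 genes was 1.21, against 0.0028 over all genes tested. The genes and the lists below were chosen with earlier results of these data known. Such counts and medians beside those of all genes are therefore descriptions and no test of enrichment, here and below. In bulk marrow, fewer cells of a type and less RNA per cell cannot be told apart.

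*Plagl1* had the largest log2 fold change of the 8 genes. It encodes a zinc finger transcription factor that can arrest the cell cycle. The gene stood at 26.1, 16.5, 21.1 and 17.9 CPM in replicates 1 to 4 of BMAd-*Pnpla2*+/+ AL and at 73.9, 127, 109 and 49.2 CPM in those of BMAd-*Pnpla2*+/+ CR. The lowest CR sample, replicate 4, was still above the highest AL sample. The means were 20.4 ± 4.29 (SD, n = 4) and 89.7 ± 34.8 CPM (SD, n = 4), and *Plagl1* rose 4.40-fold (log2 fold change 2.14, standard error 0.39, adjusted p = 0.00385). Leaving out any 1 sample kept it between 1.92 and 2.34 on the log2 scale with an adjusted p of at most 0.0149.

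*Cdkn1c* encodes p57, an inhibitor of cyclin-dependent kinases that keeps stem cells, blood stem cells included, out of the cycle. It was at 7.77, 10.7, 9.42 and 7.49 CPM AL and at 18.5, 34.1, 25.3 and 16.7 CPM with CR. Its means were 8.83 ± 1.48 and 23.7 ± 7.89 CPM (SD, n = 4 each), a 2.68-fold rise (log2 fold change 1.42, standard error 0.35, adjusted p = 0.0131). *Grb10* encodes an adaptor that binds the insulin and IGF1 receptors and dampens their signal. Its AL samples lay closely together, at 20.1, 19.04, 16.9 and 17.5 CPM, and its CR samples were at 32.9, 51.9, 55.5 and 26.7 CPM. The means of *Grb10* were 18.4 ± 1.44 and 41.7 ± 14.1 CPM (SD, n = 4 each), and it had the smallest adjusted p of the 8 genes, 0.00299 (log2 fold change 1.18, standard error 0.20).

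*Mest* and *Peg3*, expressed from the paternal copy and needed for full growth of the fetus, rose as well. *Mest* encodes an enzyme of the alpha/beta hydrolase family that is induced in expanding white fat. It was at 15.6, 12.4, 11.5 and 7.92 CPM AL and at 32.9, 27.9, 46.0 and 15.99 CPM with CR, so CR replicate 4 lay just above AL replicate 1. Its means were 11.9 ± 3.16 and 30.7 ± 12.4 CPM (SD, n = 4 each), a 2.59-fold rise (log2 fold change 1.37, standard error 0.31, adjusted p = 0.00958). *Peg3* encodes a large zinc finger protein. It was at 3.19, 4.11, 2.99 and 3.46 CPM AL and at 5.07, 13.6, 8.14 and 5.38 CPM with CR, a 2.34-fold rise (log2 fold change 1.23, standard error 0.32, adjusted p = 0.0165). CR replicate 2 stood well above the other CR samples, and without it *Peg3* was at 0.85 on the log2 scale with an adjusted p of 0.0531.

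*Sgce* encodes epsilon-sarcoglycan, a membrane protein related to the sarcoglycans of the dystrophin complex. It was at 22.1, 20.7, 18.5 and 18.9 CPM AL and at 26.4, 35.1, 33.6 and 19.5 CPM with CR. Only CR replicate 4 fell within the AL samples, and the log2 fold change of 0.52 (standard error 0.20, adjusted p = 0.0729) did not pass the test. Without that sample it was 0.66 with an adjusted p of 0.0161.

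*H19* and *Meg3* are long non-coding RNAs that are abundant in the fetus and low in most adult tissues. *H19* had counts of 25, 32, 15 and 21 in AL samples and of 14, 35, 11 and 22 in CR samples, or 1.17 ± 0.391 and 0.977 ± 0.501 CPM (SD, n = 4 each). These groups overlapped throughout, with a log2 fold change of -0.25 (standard error 0.62, adjusted p = 0.783). *Meg3* had counts of 13, 9, 18 and 11 AL and of 8, 12, 13 and 10 with CR (log2 fold change -0.32, standard error 0.35, adjusted p = 0.508). *Dlk1*, which encodes a membrane protein that holds fat precursors undifferentiated, had 0 to 4 counts in every one of the 14 samples. At this depth 3 counts are worth 0.133 to 0.163 CPM, so no difference between groups was detectable for *Dlk1*.

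**Figure D1:**
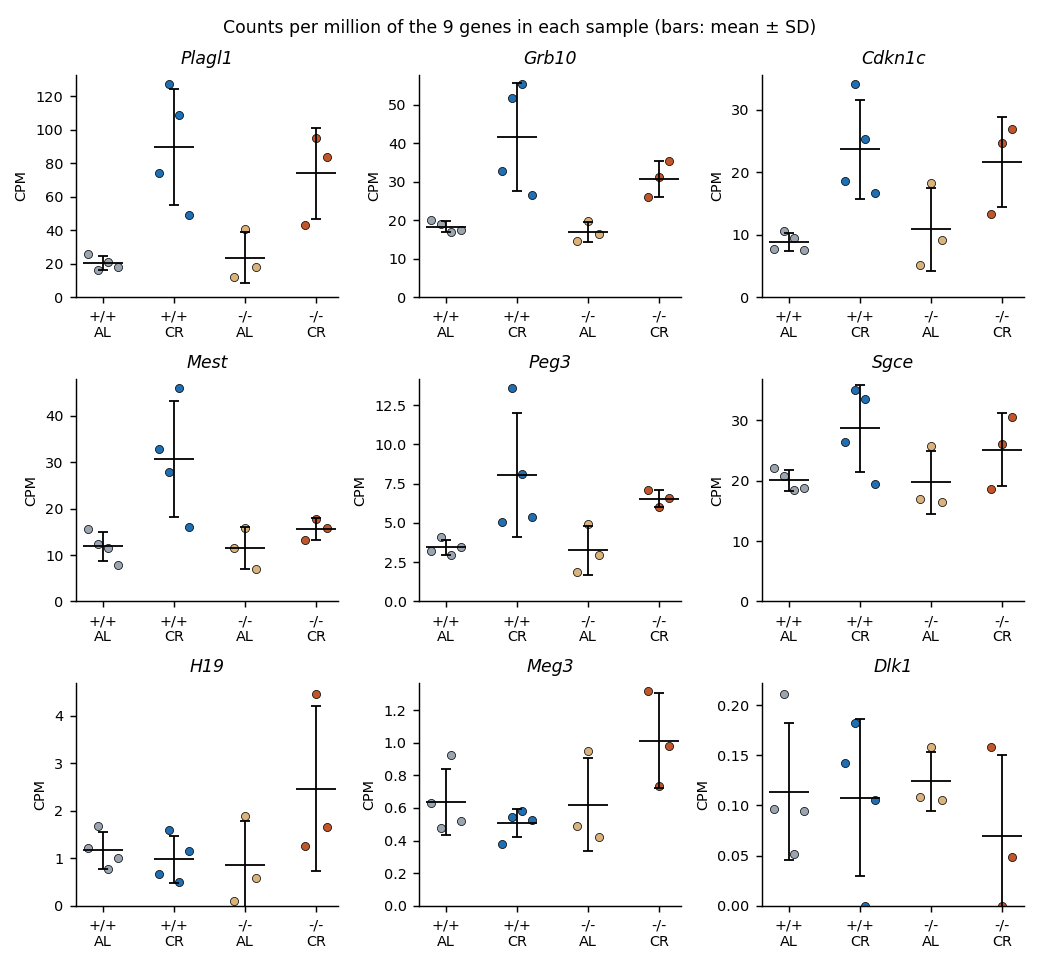
Counts-per-million values (CPM, y axis from 0) of each of the 9 genes in the 14 samples, by group (+/+ and -/- are the BMAd-*Pnpla2* genotypes, AL ad libitum, CR caloric restriction). Points are samples, the wide line is the mean and the bars ± 1 SD (n = 4, 4, 3 and 3). In BMAd-*Pnpla2*+/+ mice the CR points of *Plagl1*, from 49.2 to 127 CPM, lie above all AL points, as they do for *Grb10*, *Cdkn1c*, *Mest* and *Peg3*, while those of *H19* and *Meg3* overlap and *Dlk1* stays at or below 0.211 CPM.

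*H19* also hosts a microRNA, miR-675, in an exon, and *Mest* hosts miR-335 in an intron. The mature forms are shown, as RefSeq gives them, because they are further products of the loci, and the RNA counted here does not measure them. Capitals mark the seed, bases 2 to 8, and no other mature microRNA in the table had any of these 4 seeds.
miR-675-5p: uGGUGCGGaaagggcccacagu
miR-675-3p: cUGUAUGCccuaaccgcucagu
miR-335-5p: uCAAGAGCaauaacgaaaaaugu
miR-335-3p: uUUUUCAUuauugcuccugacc
The miR-675 arms lie at chr7:142577112-142577133 and chr7:142577078-142577099 on the minus strand and the miR-335 arms at chr6:30741314-30741336 and chr6:30741354-30741375 on the plus strand. *Mest* itself rose in BMAd-*Pnpla2*+/+ mice with CR, as given above, and *H19* did not pass the test in any comparison.

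In BMAd-*Pnpla2*-/- mice, *Plagl1* and *Grb10* were higher with CR than AL, and none of the 8 genes was lower. Over all genes tested, 6.04% were called higher and 5.57% lower, and 2.62% were higher by the criteria with a log2 fold change over 1, which *Plagl1* alone met. All 8 log2 fold changes were above 0, with a median of 0.93 against 0.047 over all genes tested. The library type of the 3 CR samples differed from that of the 3 AL samples, which cannot be told apart from the diet here.

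*Plagl1* was at 12.2, 41.0 and 17.9 CPM in the AL samples and at 43.2, 95.2 and 83.5 CPM in the CR samples of BMAd-*Pnpla2*-/- mice. AL replicate 2 stood close under CR replicate 1, and the groups did not overlap. *Plagl1* rose 3.12-fold (log2 fold change 1.64, standard error 0.44, adjusted p = 0.0333). *Grb10* was at 14.7, 19.8 and 16.4 CPM AL and at 25.9, 31.2 and 35.3 CPM with CR, also with no overlap, and rose 1.81-fold (log2 fold change 0.86, standard error 0.24, adjusted p = 0.0346). Each call was lost without 1 of 4 samples. Without AL replicate 1, AL replicate 3, CR replicate 2 or CR replicate 3 of this genotype, *Plagl1* was at 1.30, 1.44, 1.42 and 1.54 with adjusted p-values of 0.124, 0.125, 0.103 and 0.0977. *Grb10* was at 0.73, 0.80, 0.85 and 0.75 in the same 4 fits, with adjusted p-values of 0.152, 0.123, 0.0855 and 0.127.

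*Peg3* and *Cdkn1c* had log2 fold changes near those of *Grb10* but did not pass the test in this genotype. *Peg3* was at 1.85, 4.95 and 2.96 CPM AL and at 7.07, 6.00 and 6.57 CPM with CR, a log2 fold change of 1.01 (standard error 0.37, adjusted p = 0.0936), with no overlap between the groups. *Cdkn1c* was at 5.22, 18.2 and 9.15 CPM AL and at 13.4, 24.6 and 26.9 CPM with CR (log2 fold change 0.99, standard error 0.40, adjusted p = 0.118), and AL replicate 2 was above CR replicate 1. For both genes AL replicate 2 was the highest sample of its group. Without it *Cdkn1c* was at 1.55 (adjusted p = 0.0257), *Peg3* at 1.40 (adjusted p = 0.0427) and *H19* at 2.76 (adjusted p = 0.0379), and 5 of the 8 genes passed. The share of all genes called in that fit is not given. The value of *Cdkn1c* in this genotype also depended on how reads were counted, as given below. Without BMAd-*Pnpla2*+/+ CR replicate 2, *Peg3* was at 1.01 with an adjusted p of 0.0441.

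*Mest* stayed near its AL level, at 11.6, 15.9 and 7.03 CPM AL and 13.2, 17.8 and 15.7 CPM with CR, and the groups overlapped (log2 fold change 0.44, standard error 0.36, adjusted p = 0.455). *Sgce* was at 17.0, 25.7 and 16.4 CPM AL and at 18.6, 26.1 and 30.6 CPM with CR (log2 fold change 0.35, standard error 0.23, adjusted p = 0.351). *H19* had counts of 2, 36 and 11 AL and of 24, 85 and 34 with CR. The groups overlapped, and the log2 fold change of 1.504 (standard error 0.71, adjusted p = 0.177) did not pass. *Meg3* had counts of 9, 18 and 8 AL and of 25, 14 and 20 with CR (log2 fold change 0.70, standard error 0.38, adjusted p = 0.246).

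**Figure D2:**
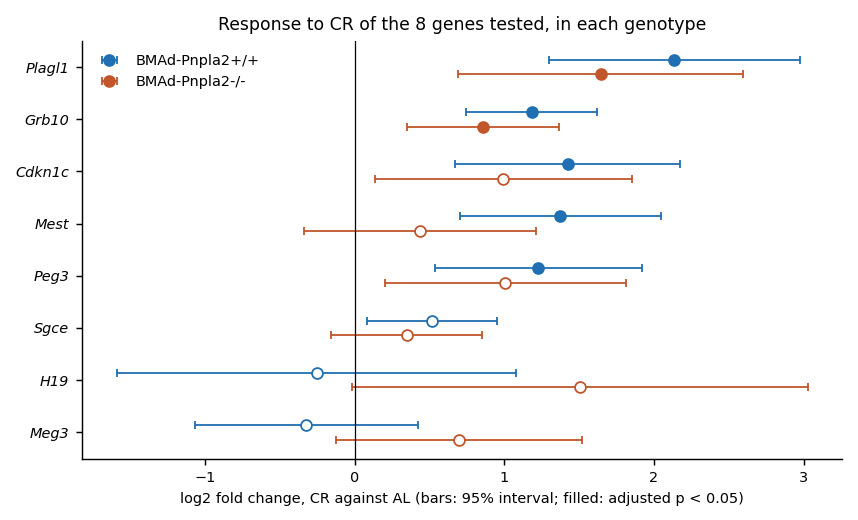
Log2 fold change of CR against AL (x axis) of the 8 genes tested, in each genotype, with 95% intervals from edgeR. Filled points passed at an adjusted p under 0.05: 5 in BMAd-*Pnpla2*+/+ (blue) and 2 in BMAd-*Pnpla2*-/- mice (red). The intervals of the 2 genotypes overlap in every gene, and those of *H19* are the widest.

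The responses of the 2 genotypes were then compared with each other. None of the 8 genes differed in its response after adjustment in edgeR (0% of all genes tested, 0 of 17671), and none had an unadjusted p under 0.05, which 1836 genes did. DESeq2 called none of the 8 either. The intervals leave room for sizeable differences: for *Mest* the response in BMAd-*Pnpla2*-/- mice was lower by a log2 difference of -0.94 (95% interval -1.95 to 0.08, adjusted p = 0.514). For *Plagl1* it was -0.49 (-1.73 to 0.74), for *Cdkn1c* -0.43 (-1.56 to 0.70), for *Grb10* -0.32 (-0.99 to 0.34), for *Peg3* -0.22 (-1.28 to 0.83) and for *Sgce* -0.17 (-0.83 to 0.49). The non-coding RNAs had differences of the other sign, 1.02 for *Meg3* (-0.09 to 2.13, adjusted p = 0.513) and 1.76 for *H19* (-0.27 to 3.78, adjusted p = 0.533). These comparisons share groups of samples, so their values are not independent of each other.

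Fed AL, none of the 8 genes differed between BMAd-*Pnpla2*-/- and BMAd-*Pnpla2*+/+ mice by edgeR or DESeq2, none had an unadjusted p under 0.05, and their log2 fold changes lay between -0.43 for *H19* and 0.30 for *Cdkn1c*. No gene was called over all genes tested (0%), and 700 had an unadjusted p under 0.05. The AL means of *Grb10*, 18.4 ± 1.44 and 17.0 ± 2.62 CPM, and of *Sgce*, 20.0 ± 1.67 and 19.7 ± 5.18 CPM (SD, n = 4 and 3), were close together, with 95% intervals of the log2 difference from -0.59 to 0.36 and from -0.49 to 0.45. Those of *Plagl1* differed by less than the spread in BMAd-*Pnpla2*-/- samples, at 20.4 ± 4.29 and 23.7 ± 15.2 CPM.

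Under CR, edgeR called none of the 8 genes between the genotypes, against 0.0113% of all genes tested, and 2 of the 8, *Mest* and *Meg3*, had an unadjusted p under 0.05, as 4095 of all genes did. *Mest* was between 13.2 and 17.8 CPM in BMAd-*Pnpla2*-/- and between 15.99 and 46.0 CPM in BMAd-*Pnpla2*+/+ CR samples (log2 fold change -0.98, standard error 0.34, unadjusted p = 0.0122, adjusted p = 0.122). DESeq2 called *Mest* (log2 fold change -1.01, adjusted p = 0.0318), and without BMAd-*Pnpla2*+/+ CR replicate 4 edgeR called it as well (-1.19, adjusted p = 0.028), together with *Grb10* (-0.60, adjusted p = 0.0499). The 0.0113% above is the share in the main edgeR fit, and the share of all genes called in these other fits is not given. These calls therefore cannot be read as particular to *Mest* and *Grb10*. *Meg3* moved the other way and its groups did not overlap, with 0.736 to 1.32 CPM in BMAd-*Pnpla2*-/- and 0.379 to 0.578 CPM in BMAd-*Pnpla2*+/+ samples (log2 fold change 0.98, standard error 0.36, unadjusted p = 0.0157, adjusted p = 0.136). These are counts of 25, 14 and 20 against 8, 12, 13 and 10. *H19* was at 2.47 ± 1.75 CPM (SD, n = 3) against 0.977 ± 0.501 CPM (SD, n = 4), with a log2 fold change of 1.33 (standard error 0.64, adjusted p = 0.227).

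The way reads were counted changed *Cdkn1c* and *Mest* most, both of which overlap a gene on the other strand. The deposited matrix held reverse-strand counts in 11 samples and unstranded counts in the 3 BMAd-*Pnpla2*-/- CR samples. From it, the log2 fold change of *Cdkn1c* with CR in BMAd-*Pnpla2*-/- mice was 0.19 (adjusted p = 0.79), against 0.99 from the counts without strand and 0.77 (adjusted p = 0.263) when both strands were summed. Between genotypes under CR, *Cdkn1c* was at -0.93 from the matrix, -0.13 without strand and -0.41 with both strands summed. *Mest* was at -1.28 (adjusted p = 0.0261) from the matrix and at -0.83 (adjusted p = 0.121) with both strands summed, against -0.98 without strand. Ignoring strand kept 54.7% of the reads of *Cdkn1c* in the 11 strand-specific libraries and 64.5% in the other 3, and 68.8% and 62.4% of those of *Mest*. For *Plagl1* 99.86% and 99.93% were kept, for *Grb10*, *Peg3* and *Sgce* 100%, and in BMAd-*Pnpla2*+/+ mice, whose 8 libraries were all strand-specific, each way of counting called the same 5 genes.

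**Figure D3:**
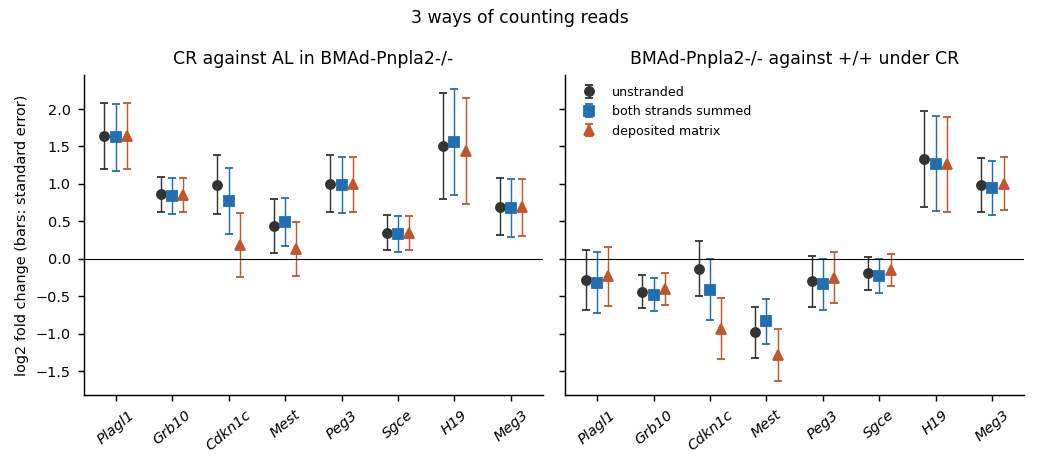
Log2 fold changes (y axis, bars are standard errors) of the 8 genes by 3 ways of counting, for CR against AL in BMAd-*Pnpla2*-/- mice (left) and for the genotypes under CR (right). Black circles are counts without strand, blue squares both strands summed, red triangles the deposited matrix. *Cdkn1c* moves from 0.99 to 0.19 on the left and from -0.13 to -0.93 on the right, while *Plagl1* stays between 1.62 and 1.64 on the left and *Grb10* between 0.84 and 0.86.

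Markers of marrow cell types moved with the diet too. All 7 adipocyte markers were higher with CR in both genotypes, and their summed level went from 655 to 1737 CPM AL to 2643 to 6278 CPM with CR in BMAd-*Pnpla2*+/+ mice and from 324 to 793 CPM to 1591 to 2988 CPM in BMAd-*Pnpla2*-/- mice. Of the 7 marrow stromal markers, 3 (*Kitl*, *Pdgfrb* and *Vcam1*) were higher in BMAd-*Pnpla2*+/+ and 1 (*Kitl*) in BMAd-*Pnpla2*-/- mice. Their sums were 4727 to 5784 CPM AL and 5703 to 9761 CPM with CR in BMAd-*Pnpla2*+/+ mice, and 4567 to 7575 CPM and 5496 to 8077 CPM in BMAd-*Pnpla2*-/- mice. The samples in which the imprinted genes stood apart also stood apart here: BMAd-*Pnpla2*+/+ CR replicate 4, the lowest of its group in *Plagl1*, *Grb10*, *Cdkn1c*, *Mest* and *Sgce*, had the lowest stromal and adipocyte sums of its group. BMAd-*Pnpla2*-/- AL replicate 2, the highest of its group in all 8 genes tested, had the highest of both sums, 7575 and 793 CPM. The markers of bone-forming cells (4 of 7 higher), endothelium (5 of 7) and fibroblasts (4 of 7 higher and 1 lower) also changed in BMAd-*Pnpla2*+/+ mice. In BMAd-*Pnpla2*-/- mice 1 marker of bone-forming cells was higher, 1 of fibroblasts lower, and none of endothelium was called. Blood cell markers moved as well: of 7 markers of early B cells 5 were lower in each genotype (median log2 fold change -5.51 for BMAd-*Pnpla2*+/+, -5.02 for BMAd-*Pnpla2*-/-), and of 7 neutrophil markers 5 were lower in BMAd-*Pnpla2*+/+ mice. Of 7 markers of stem and progenitor cells, 3 were higher and 1 lower in BMAd-*Pnpla2*+/+ and 2 higher in BMAd-*Pnpla2*-/- mice. The erythroid markers, none of which was called by edgeR, summed to 30215, 9752, 10005 and 47334 CPM in BMAd-*Pnpla2*+/+ CR replicates 1 to 4, and were thus lowest in replicates 2 and 3, in which *Plagl1* and *Grb10* were highest. Of the 7 erythroid markers 1 had an unadjusted p under 0.05 with CR in this genotype.

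Divided by the summed stromal markers, *Plagl1*, *Grb10*, *Cdkn1c* and *Mest* had higher values in every CR than in every AL sample of BMAd-*Pnpla2*+/+ mice. The stromal sum covers 1 of the cell types whose markers moved. Per 1000 CPM of summed stromal markers, *Plagl1* was at 3.09 to 4.55 CPM AL and 8.63 to 13.01 CPM with CR, *Grb10* at 3.02 to 4.03 and 4.68 to 5.99 CPM, and *Cdkn1c* at 1.29 to 2.25 and 2.73 to 3.50 CPM. *Mest* was at 1.37 to 2.72 and 2.80 to 5.22 CPM on this scale. For *Peg3* the groups overlapped, at 0.539 to 0.870 and 0.805 to 1.39 CPM, as they did for *Sgce*, at 3.26 to 4.39 and 3.42 to 4.19 CPM. In BMAd-*Pnpla2*-/- mice *Plagl1* (2.67 to 5.41 and 7.86 to 12.7 CPM), *Grb10* (2.62 to 3.23 and 4.16 to 4.72 CPM) and *Peg3* did not overlap between the diets, and *Mest* and *Sgce* did. *Cdkn1c* lay at 1.14 to 2.40 CPM AL and 2.44 to 3.33 CPM with CR, a narrow gap. Ignoring strand kept 54.7% of its reads in the 11 strand-specific libraries and 64.5% in the 3 CR libraries of this genotype. Its separation therefore cannot be told apart from the way reads were counted. Per 1000 CPM of adipocyte markers the order of the diets turned or was lost. In BMAd-*Pnpla2*+/+ mice *Grb10* (11.6 to 29.1 CPM AL and 6.58 to 10.1 CPM with CR), *Mest* (8.98 to 18.9 and 5.06 to 7.33 CPM) and *Sgce* (12.7 to 31.7 and 5.28 to 7.38 CPM) were lower with CR, and *Plagl1* (15.03 to 26.7 and 14.8 to 23.0 CPM), *Cdkn1c* and *Peg3* overlapped. In BMAd-*Pnpla2*-/- mice *Plagl1* (37.6 to 51.6 and 27.1 to 35.6 CPM), *Grb10*, *Cdkn1c*, *Mest*, *Peg3* and *Sgce* were all lower with CR on this scale, without overlap. The adipocyte sum itself rose with CR in both genotypes, as given above. Any gene that rises less than this sum comes out lower on this scale, even if its own level rises. The share of all genes tested that does so was not counted. The turned or lost order therefore cannot be read as particular to these genes. The part of the cell makeup in the changes of the imprinted genes was not tested.

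Skeletal muscle, a tissue in which *H19* is known to stay active, differed in 2 samples. The 8 muscle markers summed to 12.6, 43.3 and 141 CPM in BMAd-*Pnpla2*-/- CR replicates 1 to 3, against 10.5 to 33.1 CPM in the other 11 samples, and of the 6 that could be tested none was called by edgeR and 5 had an unadjusted p under 0.05 with CR in this genotype. *H19* was highest in replicate 2 of this group, at 4.47 CPM, and at 1.27 and 1.67 CPM in replicates 1 and 3.

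**Figure D4:**
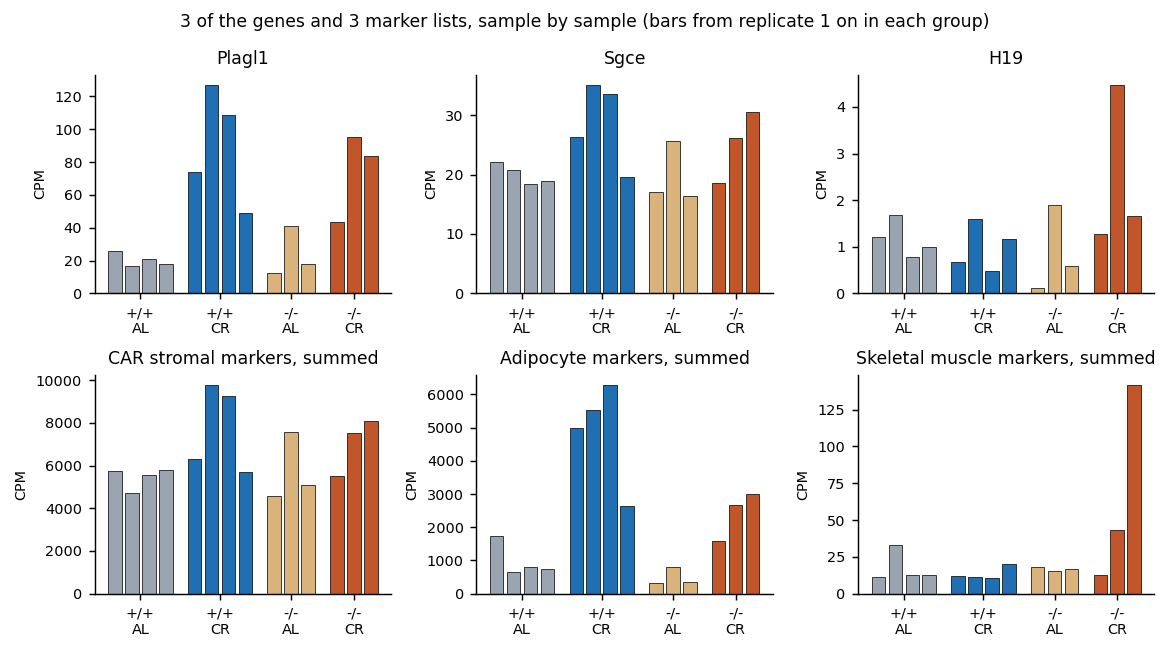
CPM (y axes from 0) of *Plagl1*, *Sgce* and *H19* (top) and summed CPM of the stromal, adipocyte and skeletal muscle markers (bottom). Each bar is a sample, in replicate order within its group. Among the BMAd-*Pnpla2*+/+ CR samples *Plagl1*, *Sgce* and the stromal sum are highest in replicates 2 and 3 and lowest in replicate 4, and the muscle sum is highest, at 141 CPM, in a BMAd-*Pnpla2*-/- CR sample that is not the highest in *H19*.

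A further 57 imprinted genes were listed, of which 56 were in the files and 38 passed the filter. With CR in BMAd-*Pnpla2*+/+ mice 8 of the 38 were higher and 3 lower, against 15.1% and 10.9% of all genes tested, and the median log2 fold change was 0.25. *Begain*, at the edge of the *Dlk1* and *Meg3* domain, was higher by 1.46 (adjusted p = 0.00427), while *Rian* (2 to 8 counts), *Mirg* (0 to 3) and *Rtl1* (0) of the same domain were too low to test. *Igf2*, the fetal growth factor next to *H19*, was higher by 2.06 (standard error 0.54, adjusted p = 0.016), with counts of 8, 5, 11 and 12 AL and of 30, 90, 34 and 9 with CR, so replicate 4 overlapped with AL. Without CR replicate 2 it was at 1.34 (adjusted p = 0.0541). Other gene models, mostly *Gm49394* on the same strand, share 64.5% of the exon bases of *Igf2*, so its counts are uncertain. *Slc22a18*, in the domain of *Cdkn1c*, was higher by 1.23 (adjusted p = 0.00888), *Kcnq1ot1*, the non-coding RNA that silences that domain, was at -0.040 (adjusted p = 0.825), and *Phlda2* had 0 to 10 counts.

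Next to *Mest*, *Copg2* was lower by -0.28 (adjusted p = 0.0382), and with both strands summed it was at -0.057 (adjusted p = 0.689). Next to *Sgce*, *Peg10* was at 0.16 (adjusted p = 0.651), and of 8 genes of that domain tested, *Calcr* was higher by 2.86 (adjusted p = 0.042, lost in 7 of 14 fits without 1 sample, lowest 1.65 without BMAd-*Pnpla2*+/+ CR replicate 2) and *Casd1* lower by -0.27 (adjusted p = 0.0429, lost in 10 of 14). *Calcr* and *Casd1* are named because they complete the count, after their values were seen. *Usp29*, beside *Peg3*, had 0 or 1 counts. *Nnat*, a small membrane protein gene within *Blcap*, was higher by 3.30 (adjusted p = 0.0256) but at 1.01 without BMAd-*Pnpla2*+/+ CR replicate 2, and the highest adjusted p without 1 sample was 0.160. *Blcap* (0.55, adjusted p = 0.00526), *Peg12* (0.58, adjusted p = 0.027) and *Peg13* (0.44, adjusted p = 0.0205) were higher and *Commd1* (-0.53, adjusted p = 0.0258) lower. *Begain*, *Blcap* and *Slc22a18* were called in all 14 fits without 1 sample, while *Copg2* and *Peg12* were lost in 5 of them, *Commd1* in 3 and *Peg13* in 2. The call of *Commd1* was also lost with both strands summed and with no filter on low counts. *Nnat*, *Calcr*, *Casd1*, *Copg2* and *Peg12* were lost under some of the alternatives too. *Igf2r*, which clears IGF2, was at -0.035 (adjusted p = 0.83) and *Ndn* at 0.33 (adjusted p = 0.43).

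In BMAd-*Pnpla2*-/- mice, *Peg12* (0.75, adjusted p = 0.0318) and *Ube3a* (0.75, adjusted p = 0.0109) were higher and *H13* (-0.39, adjusted p = 0.0222) lower of the 38, against 6.04% and 5.57% of all genes tested, with a median of 0.19. Without 1 sample *Peg12* was lost in 7 of 14 fits, *H13* in 3 and *Ube3a* in 2, and in the deposited matrix *Ube3a* was at -0.19. *Igf2* was at 1.30 (adjusted p = 0.176) and *Begain* at 0.051 (adjusted p = 0.935), and the responses of *Begain* differed by -1.41 (unadjusted p = 0.00503, adjusted p = 0.345). Between the genotypes and in the difference of responses edgeR called none of the 38, and 2 fed AL, 9 under CR and 6 in the difference had an unadjusted p under 0.05, as did 700, 4095 and 1836 of the 17671 genes tested.

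**Figure D5:**
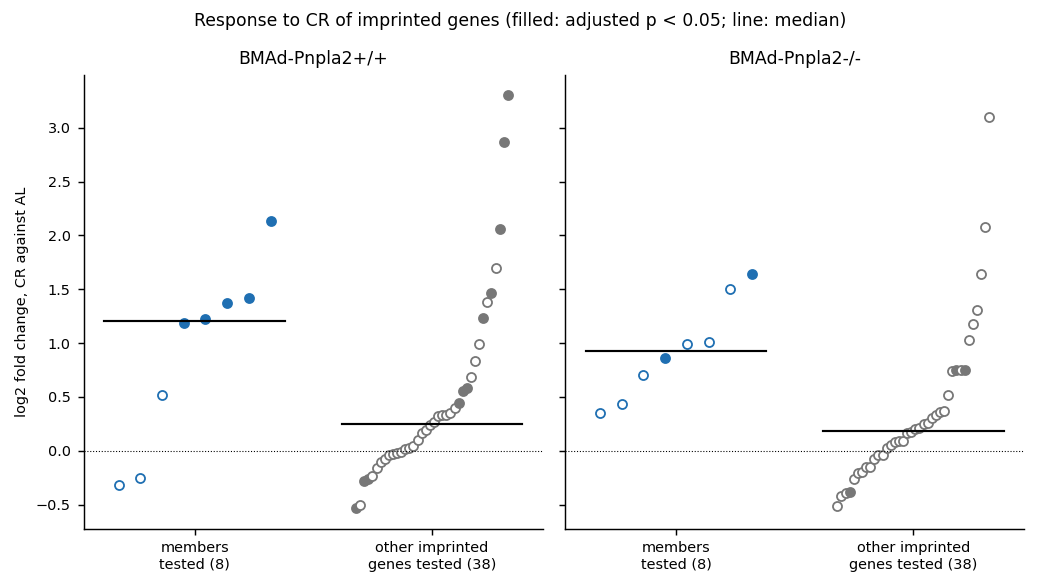
Log2 fold change of CR against AL (y axis) in each genotype for the 8 genes tested (blue) and the 38 other imprinted genes tested (grey), each ordered by value. Filled points passed at an adjusted p under 0.05, and lines are medians: 1.21 and 0.25 in BMAd-*Pnpla2*+/+ and 0.93 and 0.19 in BMAd-*Pnpla2*-/- mice.

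By parental copy, 3 of the 4 paternally expressed genes tested (*Plagl1*, *Mest* and *Peg3*) and 2 of the 4 maternally expressed ones (*Cdkn1c* and *Grb10*) were higher with CR in BMAd-*Pnpla2*+/+ mice, a count against the 15.1% of all genes given above.

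The genes were last compared by how they varied among samples within groups, as the Pearson correlation of log2 CPM over the 14 samples after each group's mean was subtracted. These values are descriptions, since depth and the share of each cell type in a pool are common to all genes of a sample. *Grb10* and *Sgce* varied most alike among the 8 genes compared (r = 0.902), followed by *Plagl1* and *Sgce* (0.895) and *Cdkn1c* and *Plagl1* (0.873). *H19* and *Mest* varied least alike (0.0706), and all pairs with *Meg3* were at or below 0.409. Among the 13046 genes that averaged 50 counts or more, those like *Plagl1* included *Nkd2* (0.969) and *Il7* (0.967), and those most like *Grb10* were *Kifap3* (0.975), *Dab2* (0.973) and *Ank2* (0.972). *Sgce* was closest to *Aplp2* (0.973), *Sult1a1* (0.969) and *Plpp3* (0.968), and *Peg3* to *Zfp462* (0.953), *Pcdhb9* (0.951) and *Gpx3* (0.939). *Cdkn1c* was closest to *Rnf128* (0.940), *Hpse2* (0.929) and *Slc9a9* (0.925), and *Mest* to *Snx7* (0.911), *Iigp1* (0.903) and *Bche* (0.899). *H19* was closest to *Slc45a3* (0.915), *Fcna* (0.895) and *Marveld2* (0.818), and *Meg3* to *Ntpcr* (0.904), *Ankrd16* (0.871) and *Cyp2s1* (0.860).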

How the data were processed

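RNA of 14 pools of bone marrow was sequenced by the authors as paired reads, aligned to mm10 with STAR after a check with FastQC 0.11.9, and deposited as raw counts per gene, without normalization, in 3 columns per sample (without strand, first strand, reverse strand) and as 1 matrix of counts of 23441 genes. Samples were grouped by their labels. The members and lists were chosen with earlier results of these data known.

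The counts without strand were fitted in edgeR 4.0.16 (R 4.3.3, limma 3.58.1) as 1 model of the 4 groups, with TMM scaling, genes past filterByExpr (17671) and a robust quasi-likelihood fit. Tests were two-sided, with Benjamini-Hochberg adjustment over all genes tested in each of 5 comparisons, and a gene was called at an adjusted p under 0.05. The criteria after the study's further ask that the log2 fold change exceed 1 in size. The standard error is the size of the log2 fold change over the square root of F. Log2 CPM for likeness used a prior count of 2, and 1 gene of that comparison is not reported here. The script was tested on simulated data. All 9 genes were named, and of the other imprinted genes a listed set and those called, up to the 8 smallest p-values. The microRNAs of *Mest* were added to this rule. Alternatives were DESeq2 1.42.0, its size factors, total counts, no filter, the deposited matrix, only the 2 groups compared, a replicate block, each sample left out, and both strands summed. Gene models were GENCODE M21, in which *Peg3* has an earlier version of its identifier than in the files. Correlations of same-numbered samples between groups were -0.209 to 0.281, and 5 of 14 samples were most like the sample of their own number, so the numbers were not taken to pair samples. Python 3.11.15, pandas 2.3.3 and matplotlib 3.10.9 made tables and plots.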

Additional observations from a re-analysis of the deposited data

How the results depend on the processing

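With CR in BMAd-*Pnpla2*+/+ mice, 5 genes were called under each of the 8 alternatives and 4 to 6 when 1 sample was left out. The shares of all genes called that are given above are those of the main fit, and those of the other fits are not given. A count from another fit, or a change in it, therefore cannot be read as particular to these genes, here or above. In BMAd-*Pnpla2*-/- mice the count of 2 became 0 with no filter on low counts, 1 when only the 2 groups compared were fitted and 4 with the replicate block, and ranged from 0 to 5 without 1 sample. The causes were not tested. With no filter *Plagl1* was at 1.58 (adjusted p = 0.117) and *Grb10* at 0.79 (adjusted p = 0.051). With only the 2 groups *Plagl1* was at 1.61 (adjusted p = 0.0503). With the replicate block *Cdkn1c* at 1.08 (adjusted p = 0.021) and *Peg3* at 1.13 (adjusted p = 0.0449) were added. That fit used the counts without strand, which kept more of the reads of *Cdkn1c* in the CR than in the AL libraries of this genotype. The added call of *Cdkn1c* is therefore uncertain. The replicate numbers share no stated source, and the block changed no other call of the 8 genes. Among the other imprinted genes it ended the calls of *Nnat* and *Casd1* in BMAd-*Pnpla2*+/+ and of *Peg12* in BMAd-*Pnpla2*-/- mice. Between genotypes under CR the count of 0 became 1 with DESeq2 and 1 with the deposited matrix, *Mest* both times, and 0 to 2 without 1 sample. Fed AL and in the difference of responses it was 0 to 0 without 1 sample and 0 under the alternatives run. Summing both strands, a choice made after the data were seen, kept direction and call for all 40 values. Depth limits *Dlk1*, *Meg3* and *H19*, at 0 to 85 counts a sample, and 3 or 4 pools a group limit the rest.

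Of the 560 values without 1 sample, 22 turned sign, none of them called. Fed AL these ranged from -1.71 to 0.095 for *H19*, -0.47 to 0.20 for *Meg3*, -0.50 to 0.21 for *Peg3*, -0.28 to 0.64 for *Cdkn1c*, -0.33 to 0.22 for *Mest*, -0.43 to 0.53 for *Plagl1* (-0.14 with the replicate block) and -0.25 to 0.099 for *Sgce*. Under CR they ranged from -0.46 to 0.076 for *Peg3* and -0.32 to 0.12 for *Cdkn1c*. The differences of responses ranged from -0.56 to 0.15 for *Peg3*, -0.81 to 0.11 for *Cdkn1c*, -0.86 to 0.10 for *Plagl1* and -0.34 to 0.0077 for *Sgce*.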
